A study of Mus musculus with 24 samples.

Results

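The early response of P19 cells to BMS753, a synthetic agonist of retinoic acid receptor alpha (RARα), was read from 6 of the 24 arrays of the series: the array at 2 h and the array at 6 h of BMS753 (1 µM), and the 4 arrays of cells given EtOH (ethanol). P19 is a mouse embryonal carcinoma line, a pluripotent tumour line that differentiates when given retinoic acid, and it was kept as a monolayer on plates coated with gelatine. RNA was hybridized to the Affymetrix Mouse Gene 1.0 ST array. The other arrays hold 2, 6, 24, 48 and 72 h of all-trans retinoic acid (ATRA, 1 µM), of the RARβ agonist BMS641 (0.1 µM) and of the RARγ agonist BMS961 (0.1 µM), and 24, 48 and 72 h of BMS753. Each agent and time had 1 array, so the 2 h and 6 h arrays stood in as the 2 repeats of early BMS753. The labels give the EtOH arrays no time, and do not say whether arrays came from separate cultures, so the p-values rest on a spread between arrays that may be technical. In fits with time terms common to the agents, that spread also holds how differently single arrays of the agents changed with time.

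Retinoic acid enters the nucleus and binds RARα, RARβ or RARγ, which sit on DNA as partners of the retinoid X receptors (RXR). Without ligand the pair holds corepressors. Ligand exchanges them for coactivators, and genes with a retinoic acid response element, a direct repeat of the half-site AGGTCA or a close relative, are then transcribed. Early targets in embryonal carcinoma and embryonic stem cells include a receptor gene of the pathway itself (Rarb), enzymes that remove retinoic acid or its precursors (Cyp26a1, Dhrs3) and homeobox genes.

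Values are log2 intensities, and a difference of 1 is a 2-fold change. Across all 19938 named genes, the 2 h and 6 h arrays lay a median of 0.051 and 0.044 above the mean of the EtOH arrays, against -0.009 to 0.008 for single EtOH arrays. In the dimmest 33.3% of genes the medians were 0.068 and 0.07, and in the brightest 33.3% they were 0.029 and 0.002. With arrays quantile normalized again the median early change fell from 0.05 to 0.01. Array medians ran from 6.502 to 6.677. The cells carried the marks of the embryonal carcinoma state in every one of the 6 arrays. Pou5f1, which encodes the pluripotency factor Oct4, stood at 12.99, 12.85, 12.89 and 12.88 in EtOH, 12.91 at 2 h and 12.85 at 6 h, and Sox2 at 11.50 to 11.56 in EtOH, 11.59 and 11.65. Of the 8 embryonal carcinoma markers, Dppa4 was the dim exception, at a mean of 6.69 in EtOH.

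BMS753 raised few genes within 6 h, and lowered fewer. In a limma fit of all 24 arrays, 60 of 19938 genes were higher and 1 was lower in the 2 early BMS753 arrays than in the 4 EtOH arrays at an adjusted p under 0.05, which is 0.301% and 0.00502% of genes, or 0.306% in all. Rarb, Plk3, Dhrs3, Dusp9, Kcnip3, Zmym3 and Cidea rose by at least 2-fold, and 36 of the 60 rose by under 1.5-fold. In all 60 both BMS753 arrays lay above all 4 EtOH arrays, which restates the call, since it was made on the same arrays; over all genes the share was 24.6%. The spread in that fit also holds how differently the agents ran from 2 to 6 h and from 24 to 72 h. With the EtOH and early arrays of the 4 agents alone, 675 genes (3.39%) were higher and 104 (0.522%) lower, and the 61 genes were among these 779 (3.91%). The spread there holds that of the EtOH arrays and how differently the agents ran from 2 to 6 h. Quantile normalization left 613, 70.8% of them higher in place of 86.6%, and centring each array on its median left 572, 62.4% of them higher. The count over all arrays was 26, 29, 31 and 25 without EtOH replicate 1, 2, 3 and 4, 22 without the 2 h array, and 2 without the 6 h array. Below, "over all arrays" names the first fit and "over the early arrays" the second, both with Benjamini-Hochberg adjustment over all genes.

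**Figure D1:**
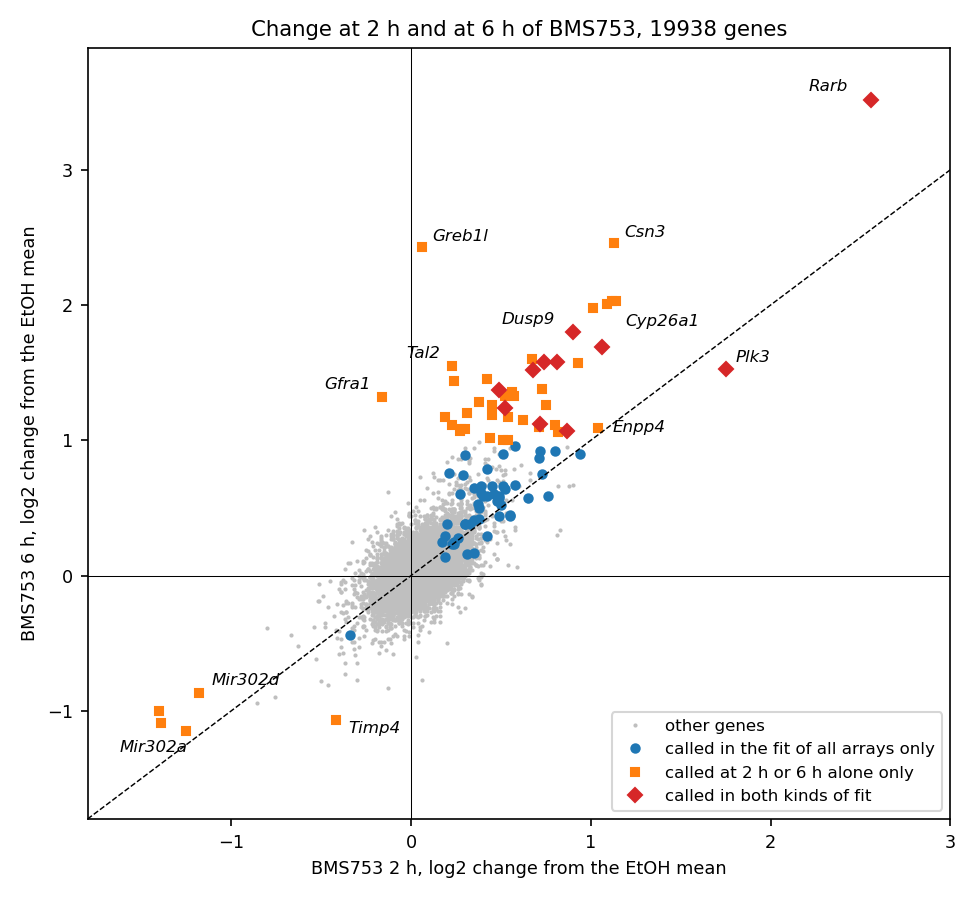
Change of each of 19938 genes at 2 h (x axis) and 6 h (y axis) of BMS753, as log2 value minus the mean of the 4 EtOH arrays, with 1 array per time; the dashed line marks equal change. Most of the coloured genes lie above the line at upper right, Plk3 lies below it, Greb1l and Gfra1 lie near 0 at 2 h, and the Mir302 genes lie at lower left.

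Among the receptors, Rarb rose most. Rarb, which encodes RARβ, stood at 6.89, 6.90, 7.06 and 7.02 in the 4 EtOH arrays, at 9.53 after 2 h and at 10.49 after 6 h. Both BMS753 arrays were far above the EtOH range, and the 6 h array was the higher. The rise was 3.04 ± 0.15 (SE of the limma fit, n = 2 and 4), or 8.25-fold, with an adjusted p of 4.31e-08 over all arrays. It was 5.92-fold at 2 h and 11.5-fold at 6 h. Rara, the gene of the receptor that BMS753 binds, was tight in EtOH, at 8.99, 8.99, 9.01 and 8.98, and read 9.37 at 2 h and 9.50 at 6 h. Its rise of 0.44 ± 0.09 passed over all arrays (limma adjusted p = 0.0443). Rxrg, which encodes RXRγ, read 9.05 to 9.39 in EtOH, 9.53 at 2 h and 10.04 at 6 h, and passed over the early arrays alone (0.57 ± 0.08, limma adjusted p = 5.63e-04). Rarg, Rxra and Rxrb did not pass in either fit, with differences of 0.12, 0.13 and 0.14. Of the 6 receptor genes, 2 rose over all arrays and 3 over the early arrays, beside 0.301% and 3.39% of all genes. None fell in either fit, where 0.00502% and 0.522% of all genes did.

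The Rarb promoter is printed here since its retinoic acid response element is the textbook case and the gene moved most. The bases before the start of the RefSeq transcript (GRCm38.p6, chr14:16575477-16575726, minus strand) hold a direct repeat with a 5-base spacer (DR5), in capitals, and so do those of Cyp26a1 (chr19:37697558-37697807, plus strand), where it lies on the opposite strand. The promoter of Slc45a3, also raised, holds a repeat with a 2-base spacer (DR2; chr1:131970359-131970608, plus strand).
Rarb: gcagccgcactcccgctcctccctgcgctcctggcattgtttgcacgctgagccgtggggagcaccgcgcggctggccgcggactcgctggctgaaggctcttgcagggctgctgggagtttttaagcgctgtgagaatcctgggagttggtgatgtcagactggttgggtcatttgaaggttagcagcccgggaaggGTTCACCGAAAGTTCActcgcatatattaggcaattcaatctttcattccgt
Cyp26a1: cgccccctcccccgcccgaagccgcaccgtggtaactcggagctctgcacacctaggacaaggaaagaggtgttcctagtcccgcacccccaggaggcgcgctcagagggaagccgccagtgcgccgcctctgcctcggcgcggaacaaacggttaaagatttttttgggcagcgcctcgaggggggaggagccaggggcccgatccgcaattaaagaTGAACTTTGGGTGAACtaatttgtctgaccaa
Slc45a3: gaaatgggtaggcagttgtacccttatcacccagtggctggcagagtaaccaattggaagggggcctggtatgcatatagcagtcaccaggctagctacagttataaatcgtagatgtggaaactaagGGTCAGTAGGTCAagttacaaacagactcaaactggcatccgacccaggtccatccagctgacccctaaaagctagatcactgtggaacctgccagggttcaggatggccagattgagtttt
The DR5 searched was GGTCANNNNNNGGTCA, GGTCANNNNNNGTTCA, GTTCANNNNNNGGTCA or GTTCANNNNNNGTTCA on either strand, in the 250 bases before and 50 after a start. The DR2 was GGTCANNNGGTCA, GGTCANNNGTTCA, GTTCANNNGGTCA or GTTCANNNGTTCA. Of 32851 promoters in the table, 81 (0.247%) held the DR5 and 131 (0.399%) the DR2. Of the 95 genes raised over all arrays or at 6 h, 70 had a promoter there; the DR5 was found in Rarb and Cyp26a1 and the DR2 in Slc45a3. Of the 752 promoters of genes raised over the early arrays, 2 held the DR5 and 2 the DR2 (0.266% each), beside the 0.247% and 0.399% of all promoters. A match is a description of letters, not a site shown to be used.

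Enzymes that limit retinoic acid rose as well. Dhrs3, which reduces retinaldehyde and so lowers the supply of retinoic acid, read 8.71, 8.71, 8.76 and 8.81 in EtOH, 9.81 at 2 h and 10.43 at 6 h. The rise of 1.37 ± 0.17 passed over all arrays (limma adjusted p = 0.00232) and amounted to 2.08-fold at 2 h and 3.22-fold at 6 h. Cyp26a1, the main enzyme that breaks retinoic acid down in early embryonic cells, read 6.20, 6.05, 6.50 and 6.41 in EtOH, 7.41 at 2 h and 8.32 at 6 h. Its difference of 1.57 ± 0.59 did not pass over all arrays (limma adjusted p = 0.35) and passed over the early arrays (adjusted p = 1.43e-04), at 2 h and at 6 h (6 h limma adjusted p = 6.85e-07). Crabp2, which carries retinoic acid to the receptors, rose by 0.42 ± 0.07 over the early arrays (limma adjusted p = 0.00157). Rdh10, which makes retinaldehyde, was the member that fell there, by 0.30 ± 0.08 (limma adjusted p = 0.0449): it read 9.05 to 9.13 in EtOH, 8.98 at 2 h and 8.60 at 6 h. Of the 21 genes of clearance, synthesis and binding, 1 rose over all arrays, beside 0.301% of all genes. Over the early arrays 3 rose and 1 fell, beside 3.39% and 0.522% of all genes. The list's median change was 0.04, against 0.05 over all genes.

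Among other genes known to answer retinoic acid, Nrip1, a corepressor that retinoic acid induces, was as high at 2 h as at 6 h: it read 9.48 to 9.64 in EtOH, 10.33 and 10.17. It rose by 0.67 ± 0.09 over all arrays (limma adjusted p = 0.00369). Csn3, a milk protein gene that is dim in these cells, climbed from 5.09, 4.95, 4.84 and 4.98 in EtOH to 6.09 at 2 h and 7.43 at 6 h, or 5.52-fold at 6 h (limma adjusted p = 9.43e-09). Greb1l read 7.54, 7.61, 7.62 and 7.49 in EtOH, and 7.63 at 2 h. At 6 h it stood at 9.99, 5.38-fold above EtOH, and its other probe set rose by 2.33 where this one rose by 2.43. Gata6, an endoderm transcription factor, read 7.40 to 7.63 in EtOH, 8.37 and 8.45, and rose over the early arrays (0.91 ± 0.17, limma adjusted p = 0.00522). Of the 21 genes of this list 1 rose over all arrays and 4 over the early arrays, beside 0.301% and 3.39% of all genes. The other 17 were called in neither fit, and the list's median was 0.14.

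**Figure D2:**
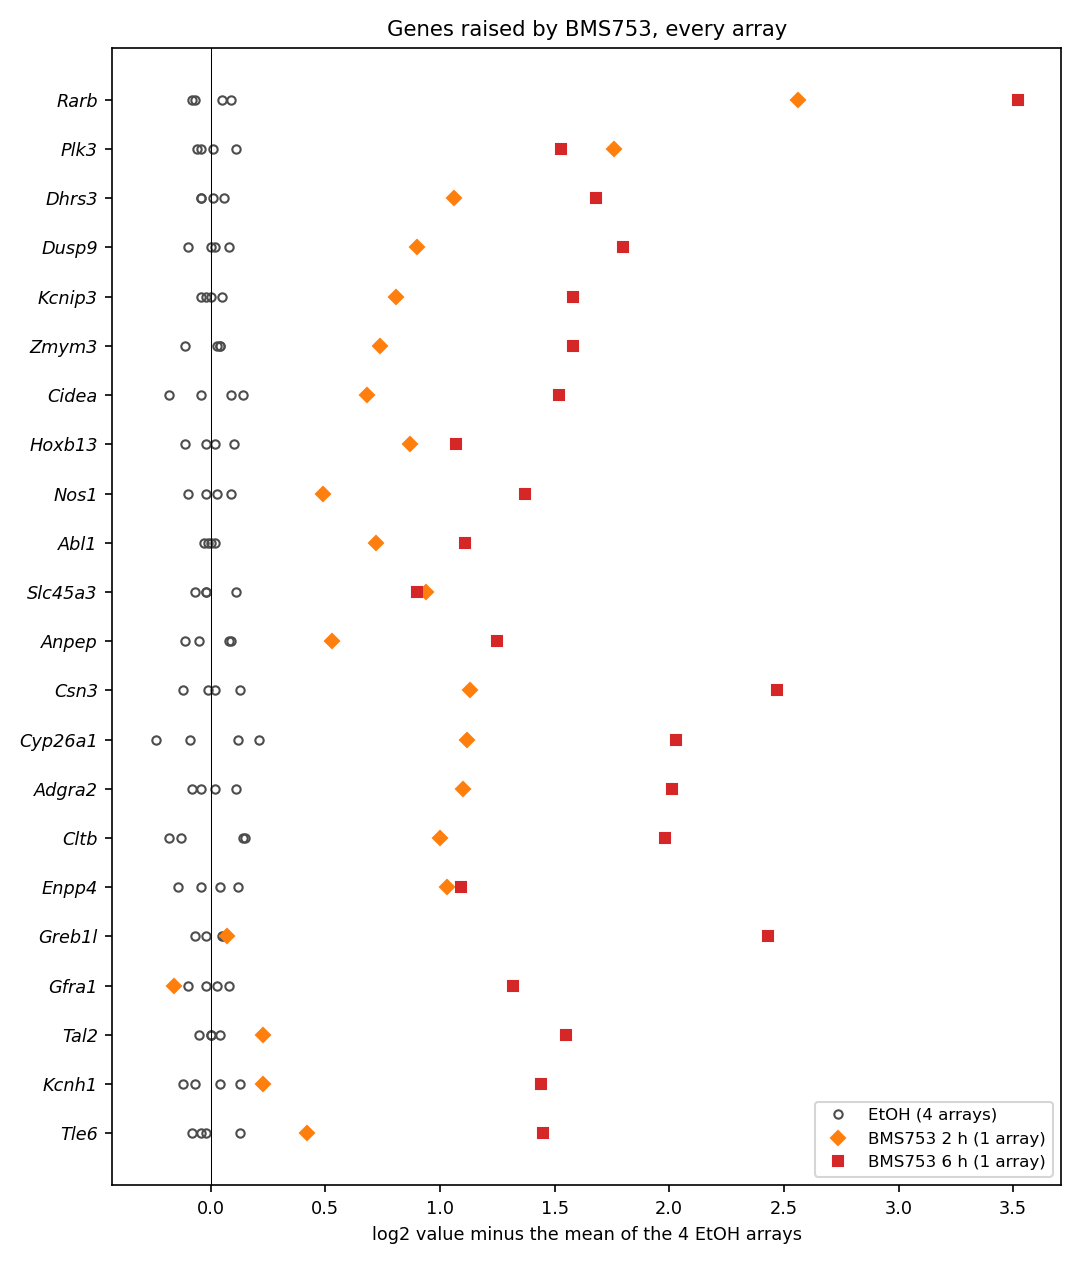
Value of every array (x axis, log2 minus the EtOH mean) for genes raised by BMS753. The 4 EtOH arrays are open circles, 2 h diamonds and 6 h squares. Rarb is the farthest to the right at both times, Plk3 and Slc45a3 read lower at 6 h than at 2 h, and Greb1l and Gfra1 lie beside EtOH at 2 h.

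Plk3, a polo-like kinase tied to stress responses, read 8.79, 8.89, 8.72 and 8.74 in EtOH, 10.54 at 2 h and 10.31 at 6 h. Among genes called over all arrays it had the largest rise after Rarb (1.64 ± 0.19, limma adjusted p = 0.00136), and its difference between 6 h and 2 h, -0.22, did not pass (limma adjusted p = 0.688). Plk3 also read 9.32 to 9.80 in the 4 early arrays of BMS641 and BMS961, all above EtOH. Gadd45b, a stress-induced gene, read 7.52 to 7.77 in EtOH, 8.47 and 8.71, and Trp53inp1, a p53 target, 9.23 to 9.42, 9.84 and 10.30. Both passed at 6 h and over the early arrays (limma adjusted p = 1.10e-05 and 1.06e-04), as did Sesn2 over the early arrays, while Mdm2, the classic p53 target, stood at 9.96 to 10.03 in EtOH, 10.05 and 10.06. Of 23 genes of p53 targets and polo-like kinases, 1 rose over all arrays and 4 over the early arrays, beside 0.301% and 3.39% of all genes. None fell, where 0.00502% and 0.522% of all genes did.

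Dusp9, a phosphatase that switches off ERK, read 8.90, 9.08, 9.00 and 9.02 in EtOH, 9.90 at 2 h and 10.80 at 6 h. The rise of 1.35 ± 0.20 passed over all arrays (limma adjusted p = 0.00818). Over the early arrays 5 further feedback genes rose, all by less: the phosphatases Dusp5 (0.43), Dusp4 (0.38) and Dusp14 (0.37), and the ERK inhibitors Spred1 (0.36) and Spred2 (0.35). That makes 6 of 23 measured, against 3.39% of all genes, and none fell, though with quantile normalization Errfi1 was lower. Dusp6, the feedback phosphatase most often used as an ERK readout, read 10.28 to 10.43 in EtOH and 10.33 at both times, and Spry4 9.68 to 9.75, 9.87 and 9.67. Neither passed. The immediate early genes went down where they passed: Myc, a growth regulator, read 10.49 to 10.59 in EtOH, 10.13 at 2 h and 10.08 at 6 h (-0.44 ± 0.06), and Ier3 8.49 to 8.81, 7.84 and 8.25 (-0.60 ± 0.13). These were 2 of 22 members over the early arrays, where 0 rose and 0.522% of all genes were called lower. None passed over all arrays. With quantile normalization Klf10 was lower as well.

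Of the remaining genes most raised over all arrays, all read higher at 6 h than at 2 h except Slc45a3. Kcnip3, which encodes a calcium-binding repressor and channel partner, read 9.48 to 9.57 in EtOH, 10.33 and 11.10, with a change of 1.20 ± 0.24 (limma adjusted p = 0.0472). Zmym3, which encodes a zinc finger protein of histone deacetylase complexes, read 7.75 to 7.90, 8.60 and 9.44 (1.16 ± 0.15), and Cidea, a lipid droplet protein gene, 6.05 to 6.37, 6.91 and 7.75 (2.14-fold). Nos1, which encodes a nitric oxide synthase, rose by 0.93 ± 0.15 and Anpep, a membrane peptidase gene, by 0.88 ± 0.14. Abl1, a tyrosine kinase gene, had the tightest controls of the set: 9.98, 9.96, 9.93 and 9.95 in EtOH, then 10.68 and 11.07 (0.92 ± 0.08, limma adjusted p = 1.21e-04). Slc45a3, a transporter gene, read 7.14 to 7.32, 8.15 and 8.11 (0.92 ± 0.17). Mcl1, an antiapoptotic Bcl2 relative that is named here after its values were seen, read 9.97 to 10.09, 10.72 and 10.88 (0.79 ± 0.10). The calls of Kcnip3, Slc45a3 and Hoxb13 over all arrays ended with any 1 of the 6 arrays left out or with quantile normalization (Slc45a3 0.87, Kcnip3 1.18). Without the 6 h array the calls of Plk3, Dhrs3, Dusp9, Zmym3, Cidea, Nos1 and Anpep ended too (1.75, 1.06, 0.90, 0.74, 0.68, 0.49 and 0.52), and Plk3 also without the 2 h array (1.53). With no time terms the limma calls of Dusp9 (adjusted p = 0.141), Kcnip3 (0.196), Zmym3 (0.107), Cidea (0.14), Hoxb13 (0.162), Nos1 (0.262), Slc45a3 (0.08) and Anpep (0.0918) ended, and those of Rarb, Plk3, Dhrs3 and Abl1 did not.

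The dimmest calls need care. Of the 60 raised genes, 8 carried symbols of predicted transcripts, small RNAs or olfactory receptors. Counted separately, 4 of the 60 were olfactory or Mrgpr receptors, with rises of 0.21 to 0.26. Rises of that size lie closer to the median of 0.068 and 0.07 in the dimmest 33.3% of genes than those of the genes above. Their part in that shift was not tested. The lone fall over all arrays was Gal3st2c, a sulfotransferase gene, at 6.48, 6.52, 6.45 and 6.60 in EtOH, 6.17 and 6.08 (-0.39 ± 0.07, limma adjusted p = 0.0267). ATRA arrays read 6.38 and 6.50 there, and the call ended without EtOH replicate 1, 2 or 4 or either BMS753 array (-0.34 to -0.44), and with no time terms (limma adjusted p = 0.12).

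At single times, with the spread of the EtOH arrays taken to hold for each lone array, 13 genes (0.0652%) were called at 2 h, 9 of them higher (0.0451%) and 4 lower (0.0201%), and 50 (0.251%) at 6 h, 46 higher (0.231%) and 4 lower. A call needed a limma adjusted p under 0.05 and a 2-fold change. All 9 genes raised at 2 h were raised at 6 h, and 37 more passed at 6 h alone. In 45 of the 46 the 2 h array lay above all 4 EtOH arrays. Over all genes that share was not counted for the 2 h array alone, and both BMS753 arrays lay above EtOH in 24.6%. The 6 h array was the higher in 45 and the median share of the 6 h change present at 2 h was 46%, from -11.9% to 115%, but the choice of genes by their 6 h value favours both. Over all genes the median difference between 6 h and 2 h was -0.01. Beside Rarb, Plk3, Csn3, Cyp26a1 and Dhrs3, the named genes raised at 2 h were Adgra2, Enpp4 and Cltb. Adgra2, an adhesion receptor that works with Wnt7 ligands, read 6.90 to 7.09 in EtOH, 8.08 and 8.99, and Cltb, a clathrin light chain gene, 7.26 to 7.59, 8.44 and 9.42. Enpp4, a phosphodiesterase gene, stood as high at 2 h as at 6 h within 0.06: 7.72 to 7.98, 8.89 and 8.95. The 2 h calls of Cltb and Enpp4 sat at the 2-fold line and were lost without EtOH replicate 2 (0.96 and 0.99), that of Cltb also without replicate 3 (0.95), and both with quantile normalization. Where the late times lent the spread, 1 call at 2 h and 8 at 6 h were left.

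The test of 6 h against 2 h called 6 genes (0.0301%), all higher at 6 h: Greb1l by 2.36, Gfra1 by 1.48, Csn3 by 1.34, Tal2 by 1.32, Kcnh1 by 1.21 and Tle6 by 1.04. Csn3 was called at 2 h already, and the other 5 were not. Gfra1, the co-receptor of the growth factor GDNF, read 7.50, 7.63, 7.68 and 7.58 in EtOH, 7.44 at 2 h and 8.92 at 6 h, the single gene of the 46 whose 2 h array lay below all EtOH arrays. Tal2, a transcription factor gene of the midbrain, read 4.35 to 4.44, 4.63 and 5.95. Kcnh1, a potassium channel gene, read 5.69 to 5.94, 6.04 and 7.25, and Tle6, a Groucho relative, 6.75 to 6.96, 7.25 and 8.28. Meis2, a TALE homeobox gene and Hox partner, followed a like course at 6.91 to 7.09, 7.21 and 8.19, with a step of 0.98 that fell short of 2-fold. Each of these rests on 1 array per time, and no call of the step was left where the late times lent the spread.

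**Figure D3:**
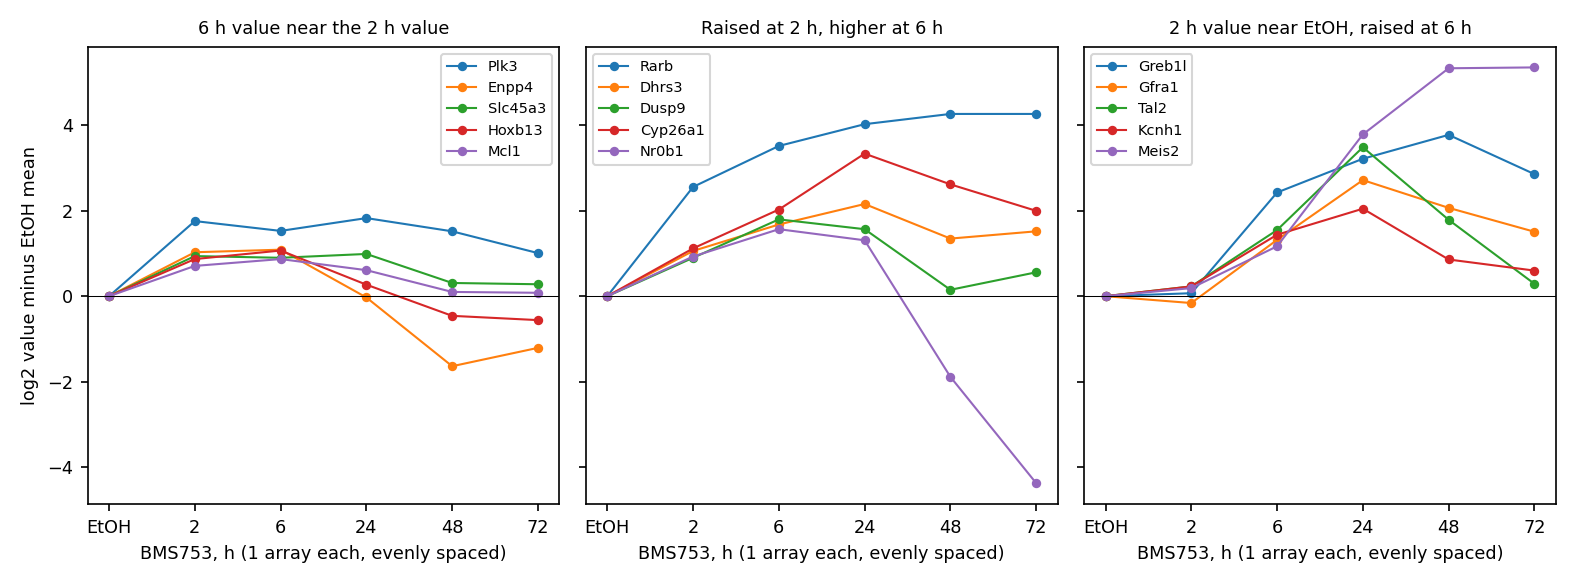
Course of 15 genes through BMS753, as log2 value minus the EtOH mean (y axis) at EtOH, 2, 6, 24, 48 and 72 h (x axis, evenly spaced, 1 array each). Rarb holds its rise to 72 h, and Nr0b1 falls below EtOH by 48 h. Greb1l, Gfra1, Tal2, Kcnh1 and Meis2 lie within 0.24 of the EtOH mean at 2 h and higher at 6 h.

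What stayed up later differed by gene. Of the 60 genes raised over all arrays, 25 had all 3 later BMS753 arrays above EtOH, and of the 46 raised at 6 h, 24 did. These counts use the same EtOH arrays as the calls. The share over all genes was not counted, so they do not set these genes apart. Rarb read 11.00 at 24 h and 11.24 at 72 h, and Dhrs3 10.91 and 10.27. Hoxb13 read 6.82 at 24 h, still above its EtOH range of 6.44 to 6.65, and 5.99 at 72 h, below that range. Meis2 climbed to 10.81 and 12.38.

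Few Hox genes were called. Of 14 measured members of paralogue groups 1 to 5, none passed over all arrays and 1, Hoxb1, passed over the early arrays (0.43 ± 0.11, limma adjusted p = 0.0443), a call lost with quantile normalization. It read 6.92 to 7.16 in EtOH, 7.34 at 2 h and 7.58 at 6 h. In 5 of the 14 both BMS753 arrays lay above EtOH, beside 24.6% of all genes. Of 23 members of groups 6 to 13, Hoxb13 rose over all arrays (0.97 ± 0.18, limma adjusted p = 0.0315), from 6.57, 6.53, 6.65 and 6.44 in EtOH to 7.42 at 2 h and 7.62 at 6 h, and Hoxb9 rose over the early arrays (0.37 ± 0.08, limma adjusted p = 0.0125), where 3.39% of all genes were called higher. Mir196a-1, the microRNA gene that lies between Hoxb9 and Hoxb13 in GRCm38, rose over all arrays too (0.82 ± 0.16, limma adjusted p = 0.0491). It read 5.35 to 5.60 in EtOH, 6.17 and 6.36, and is named after its values were seen. Hoxb13 and Mir196a-1 were above EtOH also in the 4 early arrays of the 0.1 µM agents, at 7.04 to 7.19 and 5.82 to 6.07.

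Of 34 pluripotency genes none passed over all arrays. Over the early arrays 7 rose and 2 fell, so 9 of 34 were called beside 3.91% of all genes, with a median change of 0.06. Nr0b1, which encodes the Oct4 partner Dax1, rose most, from 10.70, 10.66, 10.80 and 10.81 in EtOH to 11.67 at 2 h and 12.31 at 6 h (1.25 ± 0.06, limma adjusted p = 5.66e-09 over the early arrays). The DNA methyltransferase gene Dnmt3a read 10.97 to 11.05, 11.53 and 11.81 (0.64 ± 0.06). In the early arrays of the 0.1 µM agents Nr0b1 read 10.97 to 11.62 and Dnmt3a 11.31 to 11.46, also above EtOH. Tbx3, a factor of the naive state, rose by 0.45 ± 0.07 and Nanog by 0.35 ± 0.07, the latter from 8.82 to 8.91 in EtOH to 9.14 and 9.29. Fgf5, a mark of the primed state, read 8.17 to 8.38, 7.88 and 7.75 (-0.46 ± 0.08), and Utf1 11.75 to 11.87, 11.65 and 11.49 (-0.24 ± 0.05). The calls of Jarid2 and Tfcp2l1, which make up the 7 with Mycn, were lost with quantile normalization.

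Of 22 Nodal and TGF-beta genes, 3 rose and 1 fell over the early arrays, beside 3.39% and 0.522% of all genes. The ligand gene Nodal read 9.50, 9.22, 9.41 and 9.54 in EtOH, 10.29 at 2 h and 10.07 at 6 h (0.77 ± 0.08, limma adjusted p = 1.13e-05). With BMS641 and BMS961 it read 10.03 and 9.97 at 2 h, above EtOH, and 9.52 and 9.74 at 6 h. Its inhibitors and targets Lefty1 (10.30 to 10.48, 11.23 and 10.74) and Lefty2 (4.92 to 5.11, 5.57 at both times) rose by 0.58 ± 0.07 and 0.56 ± 0.08. Lefty1 read 10.48 to 11.03 in the early arrays of BMS641 and BMS961. Fst, which encodes the activin inhibitor follistatin, fell from 9.26, 9.03, 9.33 and 9.39 to 8.39 and 8.31 (-0.90 ± 0.09, limma adjusted p = 1.68e-05), the largest fall of a listed gene. The early arrays of the other agents read 7.94 to 8.77 for Fst, all below EtOH. With quantile normalization the ligand gene Gdf3 was lower too, and none of the 22 members passed over all arrays. Among BMP genes Bmp7 rose (0.50 ± 0.05), as did the inhibitor Smad6 (0.46 ± 0.07), and the target Id1 fell (-0.28 ± 0.06). In the Notch list the receptor gene Notch1 rose by 0.33 ± 0.07 and the target Hes1 fell by 0.36 ± 0.07, while the calls of Notch4 and Rbpj did not last under quantile normalization. Of 37 Wnt genes, the receptors Fzd4 (0.63 ± 0.09) and Fzd1 (0.40 ± 0.07) rose, and with that normalization Rnf43 was lost and Fzd10 was lower. Of 15 FGF ligand and receptor genes 1 rose and 1 fell over the early arrays. Fgfr4 rose by 0.39 ± 0.08, and Fgf15 fell from 10.28 to 10.45 in EtOH to 10.21 at 2 h and 9.51 at 6 h (-0.48 ± 0.12).

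**Figure D4:**
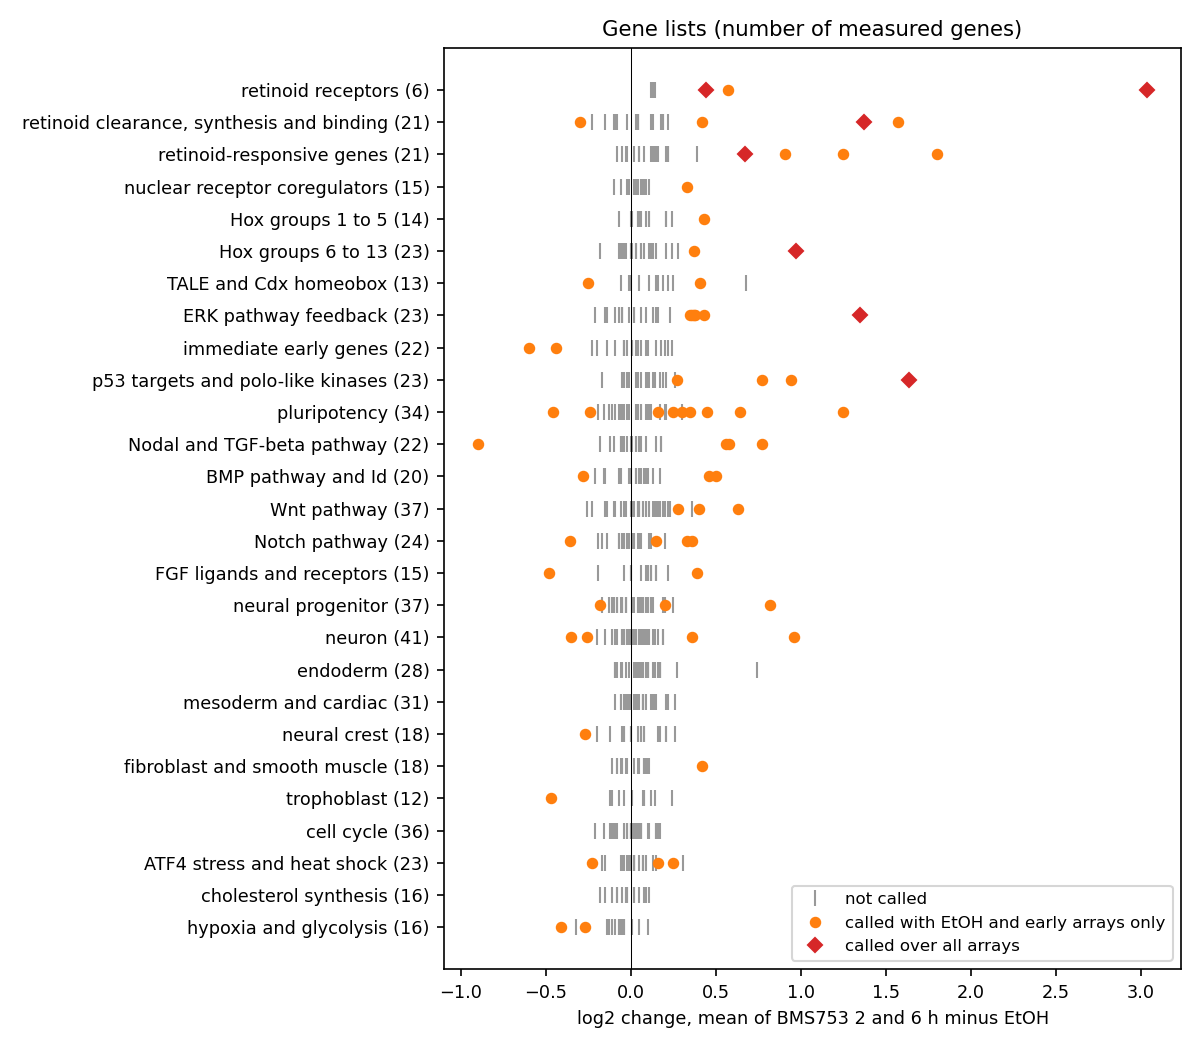
Early change (x axis, log2, mean of BMS753 2 and 6 h minus EtOH) of each member of 27 gene lists (y axis, with the number measured). Diamonds passed over all arrays, circles over the EtOH and early arrays only, and ticks in neither. Rarb stands farthest right, followed by Csn3 and Plk3, and Fst farthest left.

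Over the early arrays, where 3.91% of all genes were called, none of 28 endoderm genes, 31 mesoderm and cardiac genes, 36 cell cycle genes or 16 cholesterol synthesis genes passed, and over all arrays none did either. With that share a list of this size may hold no call, so the counts do not set these lists apart. The cyclin gene Ccnd2 was lower with quantile normalization, and the endoderm gene Foxa1 read 5.68 to 6.03 in EtOH, 6.44 at 2 h and 6.84 at 6 h, a change of 0.74 that passed in neither fit. Of 41 neuron genes 2 rose and 2 fell over the early arrays: Elavl3, an RNA-binding protein of neurons, rose from 7.99 to 8.15 in EtOH to 8.87 and 9.18 (0.96 ± 0.07, limma adjusted p = 6.12e-07), while Nefl and Stmn2 fell by 0.35 and 0.26. Of 37 neural progenitor genes 2 rose and 1 fell over the early arrays, beside 3.39% and 0.522% of all genes. Gbx2 read 6.90 to 7.09 in EtOH, 7.48 and 8.22 and was called at 6 h, but its call over the early arrays was lost with quantile normalization. Msi1 rose by 0.20 and Sox11 fell by 0.18, and these calls were kept with it. Summed up as list means, neuron genes lay at 6.84 to 6.86 in EtOH, 6.92 at 2 h and 6.86 at 6 h, and endoderm genes at 7.48 to 7.57, 7.61 and 7.59. Ascl2 (trophoblast, -0.47) and Foxd3 (neural crest, -0.27) fell and Pdgfrb (fibroblast and smooth muscle, 0.42) rose, each the single call of its list over the early arrays. Of 16 hypoxia and glycolysis genes Pfkfb3 (-0.41) and Pfkp (-0.27) fell, as did Ankrd37 with quantile normalization, and that list's median of -0.07 was the lowest of the 27.

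The genes called lower at 2 h were the 4 microRNA genes Mir302a, Mir302b, Mir302c and Mir302d, named after their values were seen. They form a cluster with Mir367 on chromosome 3 (5 hairpins within chr3:127545228-127545807 of GRCm38.p6, inside the gene Larp7), which is active in pluripotent cells. The arrays probe the precursors and do not tell the mature forms apart. Those of the 3p arm in the table are shown since their seeds, bases 2 to 8 in capitals, sort the cluster: miR-302b and miR-302d share 1 seed, miR-302c starts 1 base further along it, and miR-367 has another.
miR-302b-3p: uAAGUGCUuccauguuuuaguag
miR-302d-3p: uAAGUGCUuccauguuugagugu
miR-302c-3p: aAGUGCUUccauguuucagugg
miR-367-3p: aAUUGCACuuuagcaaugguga
Mir302a read 7.85, 7.27, 7.36 and 7.22 in EtOH, 6.04 at 2 h and 6.33 at 6 h, and Mir302c 7.30, 7.05, 7.38 and 7.26, then 5.99 and 6.09. Both BMS753 arrays were below every EtOH array. The change at 2 h was -1.39 for Mir302a, -1.40 for Mir302b, -1.25 for Mir302c and -1.18 for Mir302d (limma adjusted p from 9.91e-05 to 0.00645). At 6 h Mir302a, Mir302b and Mir302c were still called and Mir302d stood at -0.87. Over all arrays none of the 4 passed (Mir302c -1.20 ± 0.36, limma adjusted p = 0.229). Mir367, dim at 4.15 to 4.70 in EtOH, fell over the early arrays (-0.43). Larp7, whose span holds the cluster, read 10.60 to 10.71, 10.63 and 10.41, with a change of -0.15 that did not pass. Only positions were compared, not strands, so the Larp7 value is no measure of the transcript that yields the microRNAs. The Mir302 genes read low also with the other agents. All 6 of their early arrays lay below the EtOH arrays for Mir302a, Mir302c and Mir302d, while Mir302b at 6 h of BMS961 (5.91) was within its EtOH range of 5.41 to 6.30. Mir302a read 6.26 and 6.66 with BMS641, 6.38 and 7.04 with BMS961, and 6.31 and 5.81 with ATRA.

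**Figure D5:**
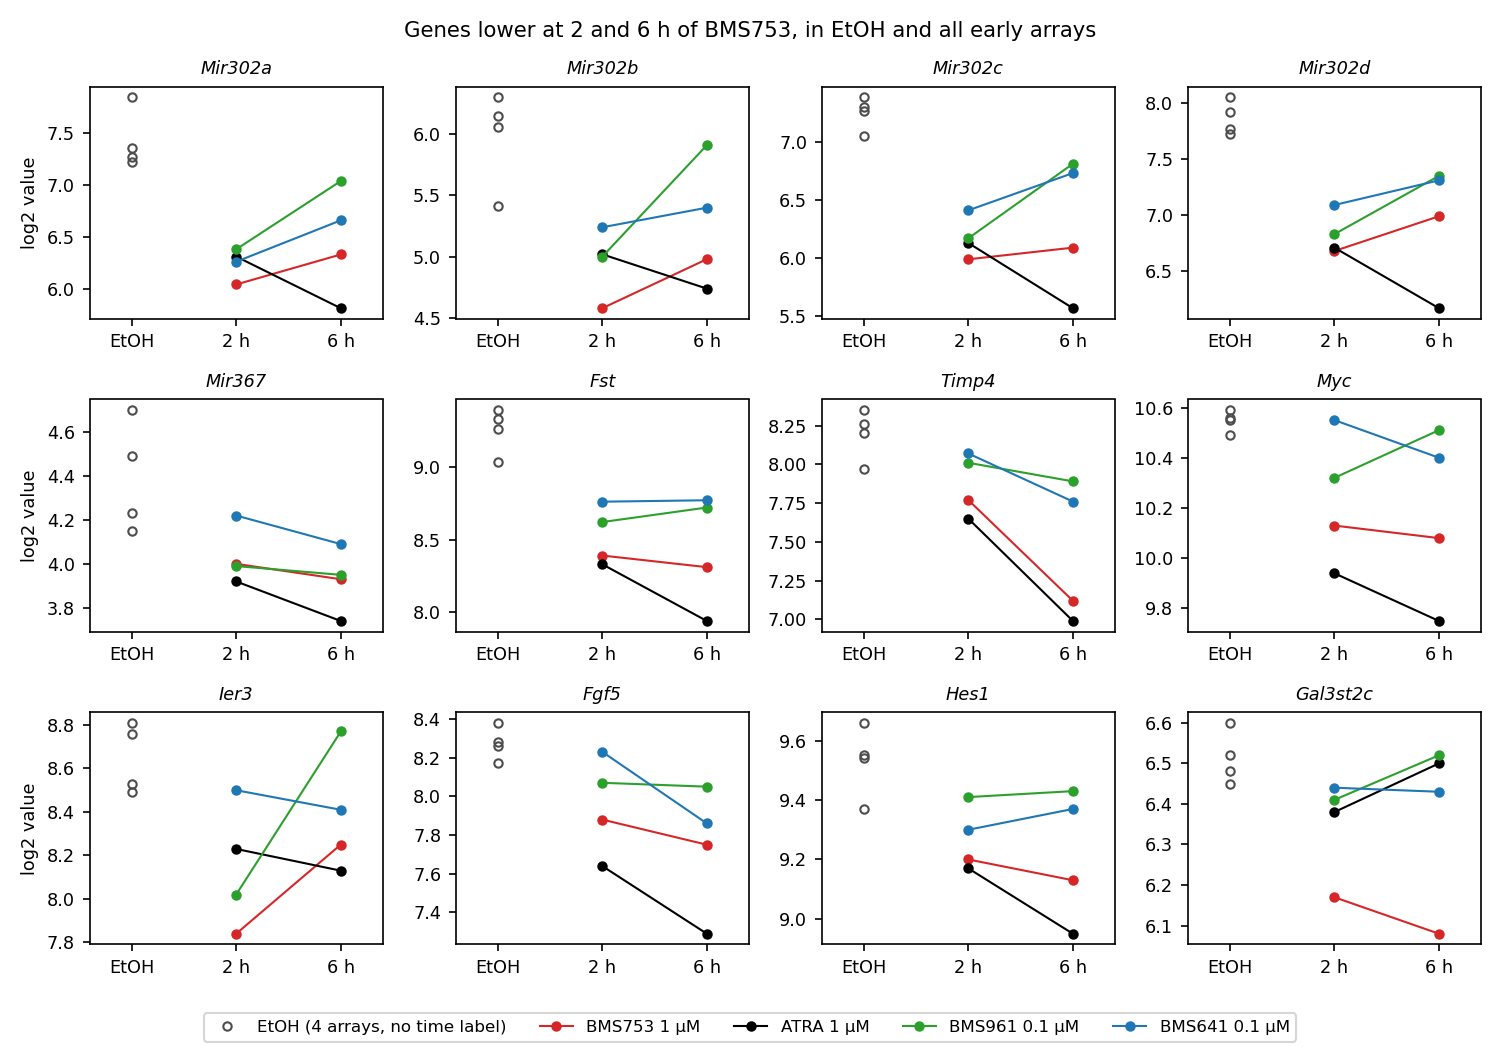
Log2 value (y axis, own scale per gene) of 12 genes lower at 2 and 6 h of BMS753, in the 4 EtOH arrays (open circles) and in the 2 h and 6 h arrays of each agent. Mir302a, Mir302c and Mir302d lie below EtOH with every agent, both BMS753 arrays lie below EtOH for every gene drawn, and the ATRA arrays of Gal3st2c read 6.38 and 6.50.

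Timp4, a metalloproteinase inhibitor gene, was the only named protein-coding gene called lower at 6 h: it read 8.35, 7.97, 8.20 and 8.26 in EtOH, 7.77 at 2 h and 7.12 at 6 h (-1.07, limma adjusted p = 8.24e-05). Of the 104 genes lower over the early arrays, 103 had both BMS753 arrays below all 4 EtOH arrays, which restates the call; over all genes the share was 4.91%. In 27 of the 104 the 4 early arrays of the 0.1 µM agents also lay below EtOH, which was so for 374 of all 19938 genes. Of the 60 raised over all arrays, 39 had those 4 arrays above EtOH, against 603 of all genes. These counts share the EtOH arrays, which carry no time, and whether the EtOH arrays set the shared shift cannot be told apart from an effect common to the agents.

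ATRA was the agent given at the same dose and times, and its difference from BMS753 needs no EtOH level. It was the 1 pair of compounds compared. Over all arrays 0 of 19938 genes differed at a limma adjusted p under 0.05 (1923 at an unadjusted p under 0.05). Over the early arrays 37 did (0.186%), 25 higher (0.125%) and 12 lower (0.0602%) with ATRA. With only the groups compared in the fit, 0 did. The median difference over all genes, ATRA minus BMS753, was -0.05. Cyp26a1 read 8.84 and 10.46 with ATRA against 7.41 and 8.32 with BMS753, a difference of 1.78 ± 0.23 (limma adjusted p = 0.00698 over the early arrays). Gbx2 (1.28 ± 0.24), Hoxb13 (0.94 ± 0.15), Cidea (0.94 ± 0.14) and Adgra2 (0.75 ± 0.14) were also higher with ATRA over the early arrays. So were Fzd4 (0.60 ± 0.10), Nanog (0.52 ± 0.08), Dusp5 (0.44 ± 0.07), Plk3 (0.41 ± 0.07), Rara (0.39 ± 0.06) and Nr0b1 (0.39 ± 0.07). Rarb read 10.08 and 11.42 with ATRA. Its difference of 0.74 did not pass in either fit (limma adjusted p = 0.0647 over the early arrays), with a 95% interval of 0.37 to 1.11 over all arrays. For Dhrs3 and Dusp9 the intervals were 0.21 to 1.06 and 0.10 to 1.11, and for Nos1 and Anpep -0.13 to 0.59 and -0.13 to 0.56. These intervals are per gene and not adjusted for the number of genes tested, so one that leaves out 0 is not a call. Edn1, which encodes endothelin 1 and is named after its values were seen, was lower with ATRA: 7.16 to 7.26 in EtOH, 6.72 and 6.44 with BMS753, 6.31 and 5.84 with ATRA (-0.50 ± 0.09, limma adjusted p = 0.0417).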

How the data were processed

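Expression was measured in P19 cells on 24 arrays. The authors deposited log2 intensities per probe set, made with Affymetrix Expression Console 1.1 per the submitters' processing notes; background correction, summarization and normalization are not given in the sources used here, and log2 was judged from the range, 2.859 to 14.3. Of 35556 probe sets, 21789 had 1 gene symbol, 1621 several and 12146 none here; 21698 matched a gene identifier. The brightest probe set stood for each of 999 genes with several, leaving 19938 genes, and none was dropped for low signal. Precision is limited by how few arrays there are.

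limma 3.58.1 in R 4.3.3 (lmFit, eBayes with trend=TRUE) fitted all 24 arrays with 1 mean for EtOH, 1 per agent for 2 and 6 h and 1 for 24, 48 and 72 h, and time terms common to the agents (residual degrees of freedom 12). Genes were called at a two-sided Benjamini-Hochberg adjusted p under 0.05 over all genes. The fit over the early arrays used EtOH and the 2 and 6 h arrays. Single times had 1 mean per agent and time, with the spread of the EtOH arrays. Scripts were tested on simulated data.

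The genes and 27 lists (639 genes, 609 measured) were chosen with earlier results of these data known, so no list was tested and a list is described by its counts. Named were the 12 largest rises and falls over all arrays with both BMS753 arrays beyond EtOH, the 8 largest each way at 2 h and at 6 h, the 6 largest each way between 6 h and 2 h and between ATRA and BMS753, the 4 marker genes and any list member; predicted transcripts, small RNAs and chemoreceptors were passed over, and exceptions are marked. Promoter and microRNA sequences are from RefSeq (GRCm38.p6). Alternatives were leaving out the dimmest 33.3% of genes, another quantile normalization, averaging probe sets, robust moderation, a 2-fold threshold or none, no time terms, other spreads and leaving out each array; centring arrays and the early-array fits with another scaling were added after seeing the data.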

Additional observations from a re-analysis of the deposited data

Results flagged for a closer look

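In 3 of 92 genes checked, 1 EtOH array stood apart from the other 3, where chance gives about 1 in 20. Hoxb9 read 7.55 in EtOH replicate 1 against 7.66 to 7.67, Jarid2 12.01 in replicate 2 against 11.89 to 11.91, and Zmym3 7.75 in replicate 4 against 7.89 to 7.90. Outside the named genes, 11 of 13767 probe sets without a single gene name were called over all arrays, 3 higher and 8 lower, with a largest change of 1.14 on the log2 scale.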

How the results depend on the processing

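The count of 61 genes called early against EtOH depends on which arrays lend the spread: it was 908 with EtOH arrays alone lending it, 779 with EtOH and early arrays only, 767 with only the groups compared and 26 with no time terms. It was 28 with quantile normalization, 26 with arrays centred on their medians and 7 with a 2-fold threshold; the early arrays gave 613 with quantile normalization and 572 when centred. Leaving out 1 array gave 2 to 31, with 2 left without the 6 h array. Of list members, 7 were called as reported, 84, 69, 69 and 4 under those 4 choices of spread and terms, 4 with the 2-fold threshold, 68 and 67 over the early arrays with quantile normalization and centring, and 1 to 5 with 1 array left out. Between ATRA and BMS753 the count of 0 became 1 with no time terms, 190 with the spread of the EtOH arrays and 37 over the early arrays. It stayed at 0 with only the groups compared. With no threshold on size the counts at 2 h, 6 h and between them were 220, 827 and 61, and with separate means at 2 and 6 h and shared late times 1, 8 and 0, since late courses then enter the spread. Of the values of named genes under these alternatives, 441 kept their side of the threshold, 77 lost the call, 5 gained it and none changed sign. Arrays could not be paired by replicate because the labels share no replicate numbers between groups. The agents, ATRA and BMS753 among them, share times, and these enter as the time terms.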
